A study of Mus musculus with 6 samples.

Results

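The 34 genes described here encode enzymes of methionine, one-carbon, glycine and serine metabolism. They were chosen by name from the 29734 genes of the deposited table, and each of the 34 names matched a row. Poly(A) RNA from whole liver was sequenced in 6 libraries. All came from male mice that were 8 weeks old when a Western diet began, and liver was taken after 20 weeks of that diet. The Prdx1 C52S group (libraries 1, 2 and 4) carries a serine in place of cysteine 52 of peroxiredoxin 1, a thiol peroxidase that reduces hydrogen peroxide. The WT group (libraries 6, 8 and 9) carries the wild-type gene. Every library comes from the Western diet, so that no value here stands for a liver on another diet. The strain, and whether the allele is on 1 or both copies, are not given in the labels, which also do not state that the libraries of a group come from separate animals. The p-values therefore measure the spread among these libraries.

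Methionine is turned by the liver into S-adenosylmethionine, the donor of methyl groups, and its product S-adenosylhomocysteine is split to homocysteine. Homocysteine either receives a methyl group from betaine or from folate and becomes methionine again, or is joined to serine on the way to cysteine, glutathione and taurine. Folate carries the one-carbon units that are released when serine, glycine, sarcosine, dimethylglycine and histidine are broken down, and these reactions are largely hepatocyte work in this organ.

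Of the 34 genes, 26 had positive log2 fold changes (Prdx1 C52S over WT, edgeR on estimated counts with TMM scaling), with a median of 0.48 against -0.03 over the 18931 genes tested. At an adjusted p under 0.05 (edgeR, Benjamini-Hochberg over all genes tested) 0 of the 34 passed, as did 0% of all genes in the higher direction and 0% in the lower. The smallest adjusted p was 0.0553 over all genes and 0.0557 among the 34. DESeq2, run as an alternative, called 18 of the 34 higher and Sds lower, where 1399 (7.39%) of all genes tested were called higher and 1723 (9.1%) lower. At an unadjusted p under 0.05, 20 of the 34 were higher in Prdx1 C52S, where 11.5% of all genes tested were, and 1, Sds, was lower, where 14.8% were. Leaving out WT 8, a library that stood apart from the others, 11 of the 34 rose at an adjusted p under 0.05 and 0 fell. That fit, used wherever WT 8 is left out, sets the Prdx1 C52S libraries against WT 6 and WT 9 alone. The background without WT 8 was 2.7% higher and 1.94% lower. These 11 were Gnmt, Cbs, Cth, Shmt1, Aldh1l1, Dmgdh, Sardh, Pipox, Gldc, Amt and Grhpr. Among the edgeR fits that left out 1 library, only the omission of WT 8 gave so many. Leaving out WT 9 instead gave 1 of the 34 higher (0.321% of all genes). Leaving out WT 6 or any Prdx1 C52S library gave 0 (0%).

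**Figure D1:**
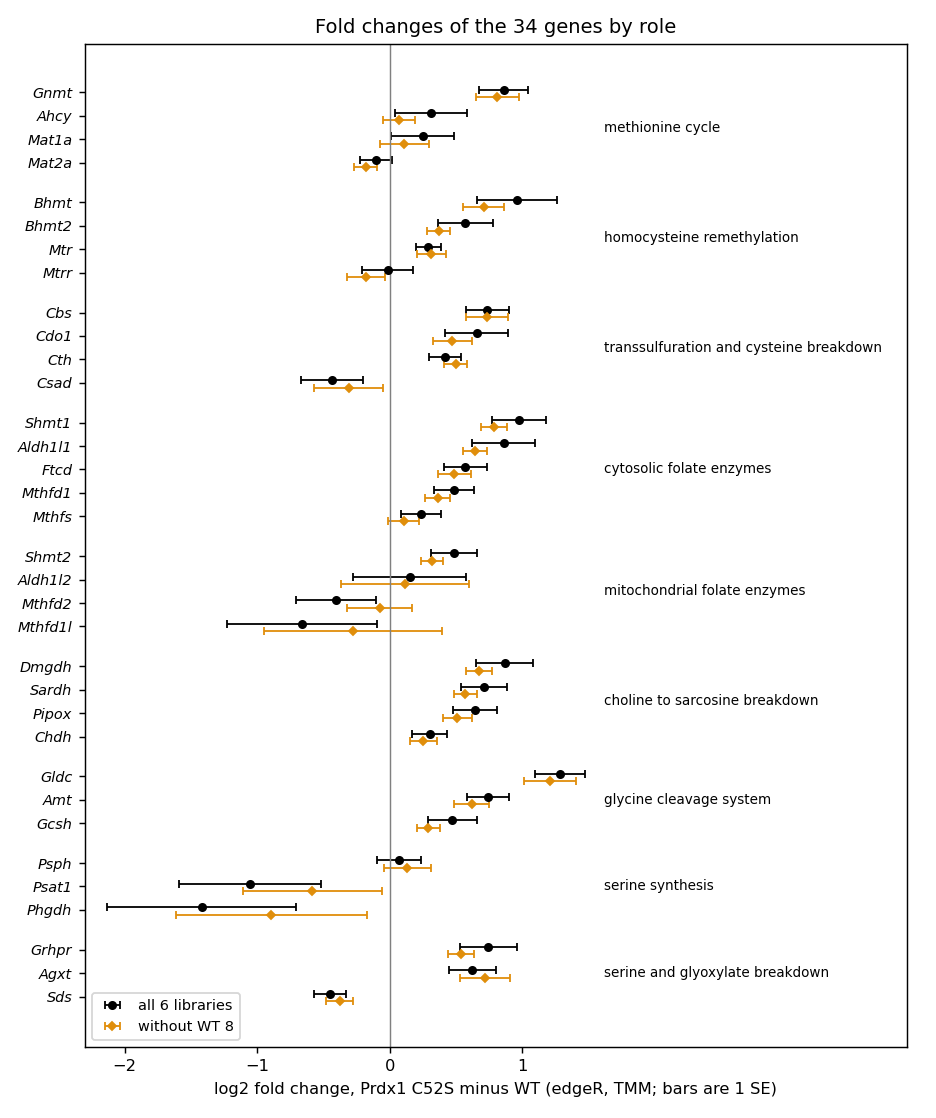
Log2 fold changes of the 34 genes (Prdx1 C52S minus WT, edgeR with TMM scaling) grouped by role, with all 6 libraries (black circles) and without WT 8 (orange diamonds). Bars are 1 SE. Of the 34 values with all libraries, 26 lie above 0, Gldc stands highest at 1.28 and Phgdh lowest at -1.42.

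The 9 hepatocyte markers found and tested (Alb, Apoa1, Ttr and others) had, like the 34 genes, 0.48 as their median log2 fold change with TMM scaling. The median was 0.19 for 10 periportal hepatocyte markers and 1.01 for 10 pericentral ones. Summed and without TMM scaling, the 9 hepatocyte markers were at 30072 to 32697 FPKM in Prdx1 C52S and 27531 to 29451 in WT. FPKM is the level of a transcript per length and library depth. The libraries were then scaled to these 9 hepatocyte markers, a choice made after seeing the data. On that scale the median of the 34 genes was 0.10, that of the 9 markers 0.09 and that of all genes tested -0.43. On that scale 9 of the 34 were higher and 4 lower at an unadjusted p under 0.05, where 2.35% of all genes were higher and 37.2% lower. Only Gldc then passed at an adjusted p under 0.05 among the 34. In whole liver, fewer cells of a type and less RNA per cell cannot be told apart.

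Markers of several other cell types had lower values in Prdx1 C52S, counted here at an unadjusted p under 0.05. Over all genes tested, 11.5% were higher and 14.8% lower at that threshold. Of 8 cholangiocyte markers 7 were lower and their summed level was 68 to 136 FPKM in Prdx1 C52S and 234 to 846 in WT. Of 8 macrophage and Kupffer cell markers 3 were lower (264 to 281 against 489 to 577), of 6 T and NK cell markers 5 (1.2 to 2.08 against 4.44 to 8.15) and of 8 stellate cell and fibroblast markers 4 (30.4 to 44.4 against 46.9 to 85). Endothelial markers did not go lower as a set. Of 6, 1 was lower (summed level 41.7 to 47.7 against 27.9 to 52.9), which is near the share of all genes. Their median log2 fold change was 0.26. Higher values were found for 4 of the 9 hepatocyte markers, 4 of 5 erythroid markers (252 to 1085 against 129 to 278) and 6 of 7 RNAs of the mitochondrial genome (42309 to 42640 against 34116 to 38266). Among 10 periportal hepatocyte markers 2 were higher (23058 to 24410 against 20691 to 21991) and 1 lower, which is Sds, itself among the 34 genes, and among 10 pericentral ones 4 were higher (2852 to 3573 against 705 to 2401, the lowest being WT 8). In WT 8 the cholangiocyte marker Krt19 was at 30.9 FPKM, against 0.507 to 3.97 in the other libraries, and the pericentral hepatocyte marker Glul at 33.3 against 253 to 347. The Kupffer cell marker Timd4 was at 0 in WT 8, and no other marker found was at 0 in any library. The part of these markers in the levels of the 34 genes was not tested. Prdx1 itself was at 238 to 261 FPKM in Prdx1 C52S and 232 to 270 in WT. Its level does not check the labels, since the allele changes a single residue.

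How the groups separate depends on the scaling. With TMM scaling, 21 of the 34 genes had all 3 Prdx1 C52S libraries above all 3 WT libraries (16.9% of all genes tested) and 1 had all below (18%). With the FPKM as deposited the counts were 15 above (6.09%) and 2 below (36.7%), and with scaling to the hepatocyte markers 11 (3.78%) and 3 (44.3%). Under all 3 scalings 11 genes stood above (3.78% of all genes tested), namely Gnmt, Bhmt, Shmt1, Aldh1l1, Ftcd, Dmgdh, Sardh, Pipox, Gldc, Amt and Grhpr, and Sds stood below (18%). The 3 scalings are not separate checks. Over all genes, 716 stood above with hepatocyte-marker scaling alone and 716 under all 3. Below, the count was 3410 with TMM scaling alone and 3410 under all 3. WT 8 was the lowest of the 6 libraries, TMM-scaled, for 21 of the 34 genes and for 15 of the 20 with an unadjusted p under 0.05 in the higher direction.

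**Figure D2:**
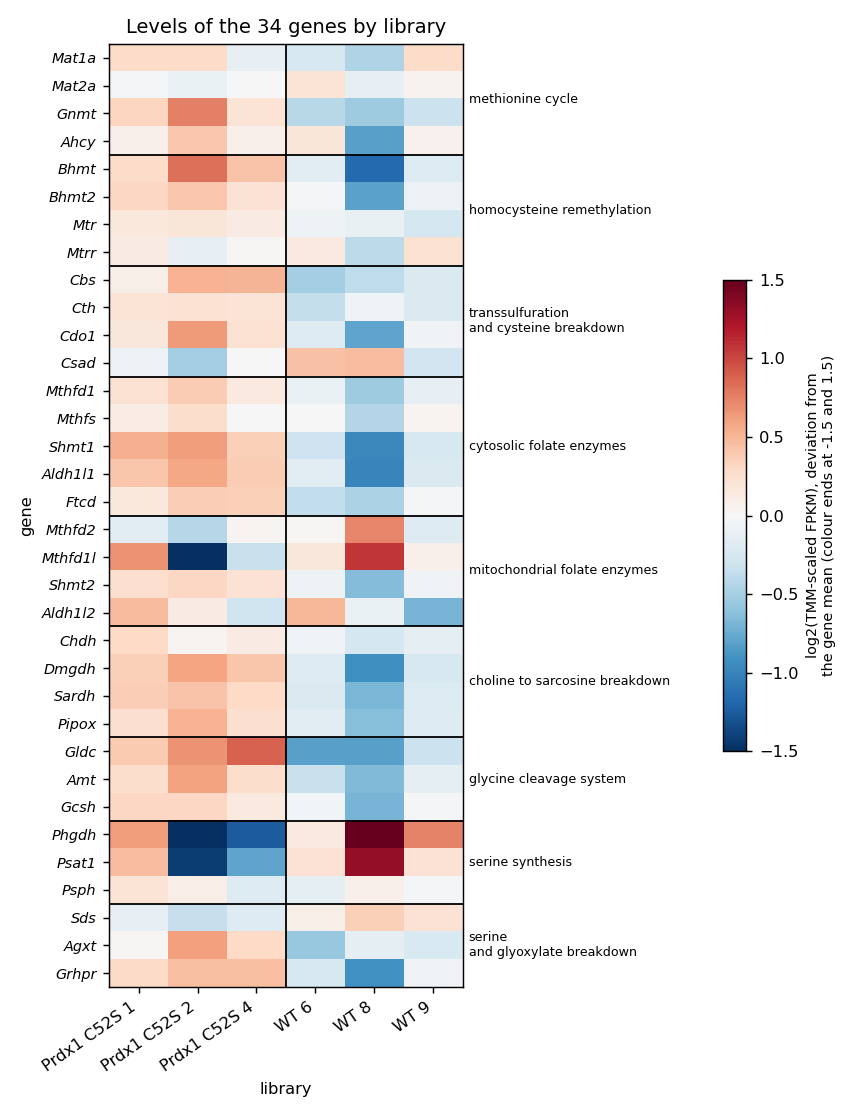
Level of each of the 34 genes (rows, by role) in each library (columns) as log2 of TMM-scaled FPKM minus the mean of the gene, red above and blue below, with colours ending at -1.5 and 1.5. Most rows are above their mean in the 3 Prdx1 C52S libraries and lowest in WT 8. Phgdh, Psat1, Mthfd1l, Mthfd2, Sds and Csad are highest in WT 8.

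The methionine cycle itself held 1 gene of 4 with an unadjusted p under 0.05 in the higher direction, where 11.5% of all genes tested had one. Gnmt, glycine N-methyltransferase, uses S-adenosylmethionine to make sarcosine from glycine and lies at chr17:46725664-46729168 (GRCm38, minus strand). It was at 589, 761 and 533 FPKM in libraries 1, 2 and 4 of Prdx1 C52S, against 397, 452 and 421 in libraries 6, 8 and 9 of WT. The highest WT library was below the lowest Prdx1 C52S library. The means were 628 ± 119 and 423 ± 27.3 (SD, n = 3 each). Its log2 fold change came to 0.86 (SE 0.18, edgeR adjusted p = 0.0819), and without WT 8 it rose by 0.81 (SE 0.16, edgeR adjusted p = 0.0424).

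Mat1a, the liver's methionine adenosyltransferase and the most abundant of the 34 genes, showed no separation. It was at 770, 742 and 572 FPKM with the C52S allele (libraries 1, 2 and 4), and 610, 652 and 859 without it (6, 8 and 9). Both the highest and the second lowest library were WT, with a log2 fold change of 0.25 (SE 0.24, edgeR adjusted p = 0.546), 0.11 without WT 8 and 0.48 without WT 9. Mat2a, the form found outside hepatocytes and in dividing cells, was at 22.8, 20.8 and 22.8 FPKM in libraries 1, 2 and 4 of Prdx1 C52S, against 30.4, 29.7 and 27 in libraries 6, 8 and 9 of WT. Every Prdx1 C52S library was below every WT library in FPKM and after scaling to hepatocyte markers, but not with TMM scaling (log2 fold change -0.10, SE 0.12, edgeR adjusted p = 0.609, and -0.02 to -0.18 leaving out each library). Ahcy, which splits S-adenosylhomocysteine, averaged 346 ± 40.6 FPKM in Prdx1 C52S and 333 ± 78.4 in WT (SD, n = 3 each), and its groups overlapped.

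Among the 4 remethylation genes, Bhmt and Bhmt2, which transfer a methyl group from betaine and from S-methylmethionine to homocysteine, had higher values in Prdx1 C52S. Bhmt (chr13:93616675-93637961, minus strand) was at 412, 576 and 446 FPKM with the C52S allele (libraries 1, 2 and 4), and 342, 211 and 328 without it (6, 8 and 9). WT 8 was the lowest, and the groups did not overlap. In edgeR the log2 fold change stood at 0.96 (SE 0.30, edgeR adjusted p = 0.118), and 0.71 without WT 8 (SE 0.16, edgeR adjusted p = 0.051). Bhmt2 was at 73.7, 75.3 and 67.9 FPKM in libraries 1, 2 and 4 of Prdx1 C52S, against 65.7, 47.4 and 62.3 in libraries 6, 8 and 9 of WT. The groups stood close together apart from WT 8, with a log2 fold change of 0.57 (SE 0.21, edgeR adjusted p = 0.146), or 0.37 without WT 8. Mtr, methionine synthase, which uses folate in place of betaine, was much less abundant at 1.56 to 2.15 FPKM over the 6 libraries. Its FPKM overlapped and its log2 fold change of 0.29 (SE 0.10, edgeR adjusted p = 0.127) was -0.11 after scaling to hepatocyte markers. Mtrr, the reductase that keeps methionine synthase active, was at 1.35 to 1.99 FPKM with a log2 fold change of -0.02.

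Bhmt2 is a head-to-head neighbour of Dmgdh on chromosome 13. Their RefSeq start sites (GRCm38.p6) are 134 bases apart on opposite strands, and their 300-base promoter windows share 233 bases. The window of Dmgdh, chr13:93674186-93674485, is shown because both genes had higher values in Prdx1 C52S. It is printed in lower case throughout, because it holds none of the 3 motifs searched below.
Dmgdh: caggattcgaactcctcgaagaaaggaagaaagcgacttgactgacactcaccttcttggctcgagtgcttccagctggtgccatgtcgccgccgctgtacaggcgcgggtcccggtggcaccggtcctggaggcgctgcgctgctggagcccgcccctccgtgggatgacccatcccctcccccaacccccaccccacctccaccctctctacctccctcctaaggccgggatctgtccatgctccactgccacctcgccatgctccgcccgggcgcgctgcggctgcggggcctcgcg

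Transsulfuration and cysteine use gave higher values for 3 of 4 genes. Cbs (cystathionine beta-synthase, chr17:31608894-31637238, minus strand) joins homocysteine to serine. It was at 30.2, 39.1 and 39.6 FPKM with the C52S allele (libraries 1, 2 and 4), and 22.6, 30.5 and 27.3 without it (6, 8 and 9). In FPKM, Prdx1 C52S 1 lay just under WT 8, and with TMM scaling the groups did not overlap. Its log2 fold change came to 0.74 (SE 0.16, edgeR adjusted p = 0.0828), and without WT 8 it rose by 0.73 (SE 0.16, edgeR adjusted p = 0.0473). Cth (cystathionine gamma-lyase, chr3:157894248-157925077, minus strand) releases cysteine from cystathionine. It was at 65.5, 63.7 and 64.2 FPKM in libraries 1, 2 and 4 of Prdx1 C52S, against 49.8, 75.5 and 54.5 in libraries 6, 8 and 9 of WT. WT 8 held the highest FPKM of the 6, and the 3 Prdx1 C52S libraries were nearly equal. The log2 fold change of Cth was 0.42 with TMM scaling (SE 0.12, edgeR adjusted p = 0.106) and 0.00 after scaling to hepatocyte markers, while without WT 8 it rose by 0.50 (SE 0.08, edgeR adjusted p = 0.0267).

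Cdo1, cysteine dioxygenase, the first step from cysteine towards taurine, was at 538, 715 and 550 FPKM with the C52S allele (libraries 1, 2 and 4), and 475, 387 and 516 without it (6, 8 and 9). The groups did not overlap in FPKM, with WT 9 just below Prdx1 C52S 1. The log2 fold change came to 0.66 (SE 0.24, edgeR adjusted p = 0.143). Csad, which carries out the next step towards taurine, lay on the other side. It averaged 30.7 ± 5.97 FPKM in Prdx1 C52S and 51.7 ± 18 in WT (SD, n = 3 each), and the groups overlapped because WT 9 was at 32.6 (log2 fold change -0.44, SE 0.24, edgeR adjusted p = 0.278, and -0.29 without Prdx1 C52S 2).

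Of the 5 cytosolic folate genes, 4 had an unadjusted p under 0.05 in the higher direction, where 11.5% of all genes tested had one. Shmt1, the cytosolic serine hydroxymethyltransferase (chr11:60788104-60811265, minus strand), was at 46.1, 47.2 and 40.1 FPKM in libraries 1, 2 and 4 of Prdx1 C52S, against 29, 22.6 and 30 in libraries 6, 8 and 9 of WT. The lowest Prdx1 C52S library was well above the highest WT library. The means were 44.5 ± 3.84 and 27.2 ± 4.01 (SD, n = 3 each) and the log2 fold change came to 0.98 (SE 0.20, edgeR adjusted p = 0.0798). Without WT 8 it rose by 0.79 (SE 0.10, edgeR adjusted p = 0.0139). Aldh1l1, which oxidises the formyl group of folate to carbon dioxide (chr6:90486427-90600203, plus strand), was at 161, 173 and 154 FPKM with the C52S allele (libraries 1, 2 and 4), and 121, 84.8 and 116 without it (6, 8 and 9). Here too the groups were well apart and WT 8 was lowest. The log2 fold change of Aldh1l1 was 0.86 (SE 0.24, edgeR adjusted p = 0.101), and without WT 8 it rose by 0.64 (SE 0.09, edgeR adjusted p = 0.0189).

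Ftcd, which moves the one-carbon unit of histidine onto folate, was at 111, 124 and 124 FPKM in libraries 1, 2 and 4 of Prdx1 C52S, against 86.6, 99.3 and 108 in libraries 6, 8 and 9 of WT. Prdx1 C52S 1 and WT 9 were close, with no overlap (log2 fold change 0.57, SE 0.16, edgeR adjusted p = 0.106). Mthfd1, the cytosolic enzyme that interconverts one-carbon folates, was at 34.5, 37 and 31.9 FPKM with the C52S allele (libraries 1, 2 and 4), and 31.1, 28.4 and 30.2 without it (6, 8 and 9). The ranges nearly touched, and the log2 fold change came to 0.48 (SE 0.15, edgeR adjusted p = 0.115). Mthfs was at 1.71 to 2 FPKM over the 6 libraries, with overlapping groups.

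The 4 mitochondrial folate genes were mostly scarce. Shmt2, the mitochondrial serine hydroxymethyltransferase, was at 59.2, 59.4 and 56.9 FPKM in libraries 1, 2 and 4 of Prdx1 C52S, against 53.5, 44.4 and 53.5 in libraries 6, 8 and 9 of WT. WT 8 again was lowest and the log2 fold change came to 0.48 (SE 0.17, edgeR adjusted p = 0.142), or 0.32 without WT 8. Mthfd1l and Mthfd2, which make and release formate in mitochondria, were highest in WT 8. Mthfd1l was at 1.98, 0.377 and 0.962 FPKM with the C52S allele (libraries 1, 2 and 4), and 1.58, 3.62 and 1.46 without it (6, 8 and 9), and Mthfd2 ranged from 0.553 to 0.776 in Prdx1 C52S and from 0.752 to 1.78 in WT. The groups of both genes overlapped, with log2 fold changes of -0.66 (SE 0.56, edgeR adjusted p = 0.49) and -0.41 (SE 0.30, edgeR adjusted p = 0.426). Without WT 8 these were -0.28 and -0.075, and Mthfd1l was at -1.36 without Prdx1 C52S 1 and -0.25 without Prdx1 C52S 2. Aldh1l2 was near 0, at 0.0544 to 0.126 FPKM.

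Choline is oxidised to betaine, and the methyl groups left on dimethylglycine and sarcosine are then passed to folate. All 4 genes of this route had TMM-scaled groups that did not overlap, with Prdx1 C52S above WT (16.9% of all genes tested). In FPKM and with scaling to hepatocyte markers the groups of Chdh overlapped. An unadjusted p under 0.05 in the higher direction was found for 3 of the 4, where 11.5% of all genes tested had one. Dmgdh, dimethylglycine dehydrogenase (chr13:93674433-93752833, plus strand), was at 106, 120 and 108 FPKM in libraries 1, 2 and 4 of Prdx1 C52S, against 81.4, 61 and 77.9 in libraries 6, 8 and 9 of WT. No library crossed between the groups, and the log2 fold change came to 0.87 (SE 0.21, edgeR adjusted p = 0.0889). Without WT 8 it rose by 0.67 (SE 0.10, edgeR adjusted p = 0.0197). Sardh, sarcosine dehydrogenase (chr2:27188393-27247414, minus strand), was at 118, 118 and 110 FPKM with the C52S allele (libraries 1, 2 and 4), and 88.9, 79 and 88.6 without it (6, 8 and 9). The spread within each group was small beside the gap, with means of 115 ± 4.53 and 85.5 ± 5.61 (SD, n = 3 each). The log2 fold change of Sardh was 0.71 (SE 0.17, edgeR adjusted p = 0.0894), and without WT 8 it rose by 0.57 (SE 0.08, edgeR adjusted p = 0.0197).

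Pipox, a peroxisomal oxidase of sarcosine and pipecolate, was at 66.2, 77.2 and 64.7 FPKM in libraries 1, 2 and 4 of Prdx1 C52S, against 56.3, 50.2 and 55 in libraries 6, 8 and 9 of WT. Its groups were apart, with a log2 fold change of 0.64 (SE 0.16, edgeR adjusted p = 0.0936), and without WT 8 it rose by 0.51 (SE 0.11, edgeR adjusted p = 0.0445). Chdh, choline dehydrogenase at the head of the route, averaged 37 ± 4.21 FPKM in Prdx1 C52S and 36.7 ± 2.58 in WT (SD, n = 3 each). Its FPKM overlapped, and its log2 fold change came to 0.30 (SE 0.13, edgeR adjusted p = 0.196).

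The glycine cleavage system splits glycine into carbon dioxide, ammonia and a one-carbon unit on folate. Its 3 genes here all had an unadjusted p under 0.05 in the higher direction, where 11.5% of all genes tested had one. Gldc, the decarboxylase that starts the reaction (chr19:30098447-30175429, minus strand), had the largest positive log2 fold change of the 34 genes. It was at 17.9, 20.7 and 24.5 FPKM with the C52S allele (libraries 1, 2 and 4), and 8.69, 10.8 and 12.1 without it (6, 8 and 9). No WT library reached the lowest Prdx1 C52S library, and WT 8 was the middle of its group. The means were 21 ± 3.33 and 10.5 ± 1.74 (SD, n = 3 each). In edgeR the log2 fold change stood at 1.28 (SE 0.19, edgeR adjusted p = 0.0557), 0.89 after scaling to hepatocyte markers, and without WT 8 it rose by 1.21 (SE 0.20, edgeR adjusted p = 0.0306).

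Amt, the aminomethyltransferase that hands the one-carbon unit to folate (chr9:108296853-108302302, plus strand), was at 14.7, 17.8 and 14.4 FPKM in libraries 1, 2 and 4 of Prdx1 C52S, against 10.9, 10.8 and 12.4 in libraries 6, 8 and 9 of WT. Its groups did not overlap. The log2 fold change came to 0.74 (SE 0.16, edgeR adjusted p = 0.0819), and without WT 8 it rose by 0.62 (SE 0.13, edgeR adjusted p = 0.0439). Gcsh, the lipoyl carrier protein of the system, was at 49.6, 47.6 and 43.5 FPKM with the C52S allele (libraries 1, 2 and 4), and 43.9, 34.5 and 43.6 without it (6, 8 and 9). Prdx1 C52S 4 lay level with WT 6 and WT 9 in FPKM, and the log2 fold change came to 0.47 (SE 0.18, edgeR adjusted p = 0.159), or 0.29 without WT 8.

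**Figure D3:**
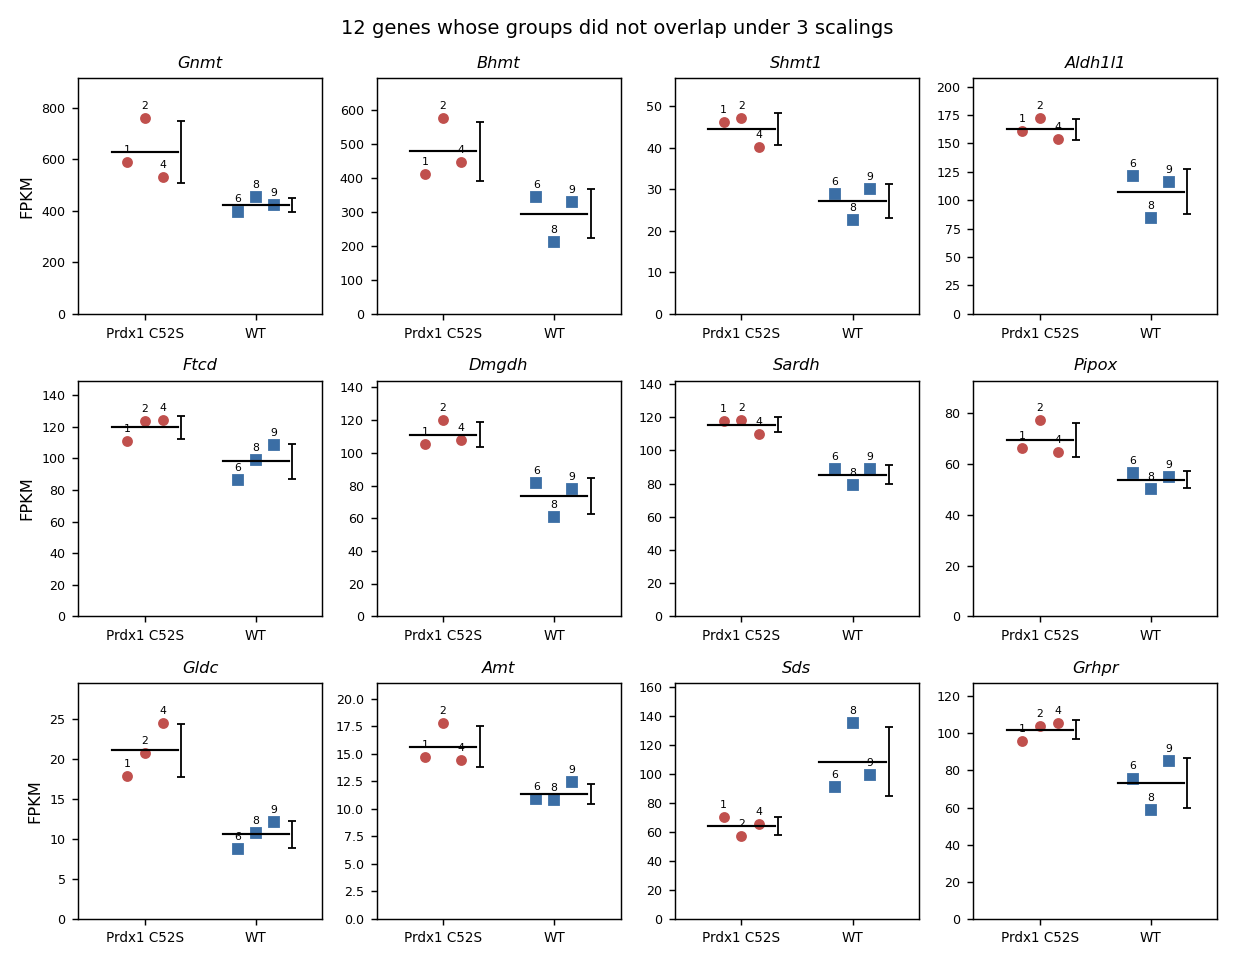
FPKM in each library of the 12 genes whose groups did not overlap under any of the 3 scalings (numbers are library names, lines the group means, bars 1 SD, n = 3 each; each axis starts at 0). In 11 panels the Prdx1 C52S libraries are the 3 highest, Gldc having means of 21 and 10.5 FPKM, and in the panel of Sds they are the 3 lowest.

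Promoter windows from RefSeq (GRCm38.p6, 250 bases before to 50 after the start) were found for 29 of the 34 genes. These 29 genes had 35 windows, which were read for 3 motifs on both strands. A gene was counted if any of its windows held the motif, while the shares of all windows are per window. TGANNNNGC, the core of the antioxidant response element, was in the windows of 11 of the 29 genes and in 41.3% of all 32851 windows. TGATGNAAN, the composite site of ATF4 and C/EBP, was in 0 of 29 and in 3.95% of all windows, and CACGTG, the E-box, in 1 of 29 and in 7.15%. No window printed here holds more than 1 of the 3. The windows of the 29 genes were richer in bases G and C than all windows, with a median of 60% against 52.7%. The windows of 4 genes that rose without WT 8 are shown so that those with a motif can be set beside one without. Capitals mark TGANNNNGC on either strand in Amt and Shmt1 and CACGTG in Cbs, and Gldc holds none. The windows are chr19:30175392-30175691 (minus strand) for Gldc, chr9:108296655-108296954 (plus) for Amt, chr11:60811216-60811515 (minus) for Shmt1 and chr17:31637156-31637455 (minus) for Cbs.
Gldc: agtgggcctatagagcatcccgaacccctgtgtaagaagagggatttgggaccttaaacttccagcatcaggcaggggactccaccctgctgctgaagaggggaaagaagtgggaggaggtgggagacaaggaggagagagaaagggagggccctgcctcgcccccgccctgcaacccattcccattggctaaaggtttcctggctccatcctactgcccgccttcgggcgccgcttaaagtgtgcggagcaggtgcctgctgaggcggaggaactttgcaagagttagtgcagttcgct
Amt: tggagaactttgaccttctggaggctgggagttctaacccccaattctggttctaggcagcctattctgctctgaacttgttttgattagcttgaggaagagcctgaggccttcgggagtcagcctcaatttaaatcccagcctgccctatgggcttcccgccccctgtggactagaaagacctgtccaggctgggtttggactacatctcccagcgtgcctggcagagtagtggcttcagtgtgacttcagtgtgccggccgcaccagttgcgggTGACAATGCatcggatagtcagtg
Shmt1: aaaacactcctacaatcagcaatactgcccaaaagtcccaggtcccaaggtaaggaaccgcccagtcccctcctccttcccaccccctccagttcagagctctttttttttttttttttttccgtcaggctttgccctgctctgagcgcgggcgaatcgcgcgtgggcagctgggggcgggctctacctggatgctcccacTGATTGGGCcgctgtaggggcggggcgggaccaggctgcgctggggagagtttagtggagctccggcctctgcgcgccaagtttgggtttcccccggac
Cbs: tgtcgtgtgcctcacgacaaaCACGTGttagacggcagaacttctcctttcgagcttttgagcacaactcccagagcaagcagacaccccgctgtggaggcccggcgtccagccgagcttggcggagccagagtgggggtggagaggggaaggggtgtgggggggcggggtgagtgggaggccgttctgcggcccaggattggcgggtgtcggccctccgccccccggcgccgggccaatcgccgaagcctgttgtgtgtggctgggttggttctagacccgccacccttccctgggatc

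The 3 genes of serine synthesis from glycolysis (Phgdh, Psat1 and Psph) had no unadjusted p under 0.05. Phgdh and Psat1, whose values are given here after they were seen, were low throughout. Phgdh, the dehydrogenase that opens the route, was at 0.691, 0.111 and 0.186 FPKM in libraries 1, 2 and 4 of Prdx1 C52S, against 0.56, 2 and 0.839 in libraries 6, 8 and 9 of WT. WT 8 was highest, Prdx1 C52S 1 lay above WT 6, and the other 2 Prdx1 C52S libraries were lowest. In edgeR the log2 fold change stood at -1.42 (SE 0.71, edgeR adjusted p = 0.249), -0.89 without WT 8 and -2.54 without Prdx1 C52S 1 (edgeR adjusted p = 0.53 and 0.17). Psat1, the aminotransferase of the next step, was at 1.03, 0.266 and 0.421 FPKM with the C52S allele (libraries 1, 2 and 4), and 0.978, 2.59 and 0.97 without it (6, 8 and 9). It had the same highest library, and Prdx1 C52S 1 was level with WT 6 and WT 9. Its log2 fold change came to -1.05 (SE 0.54, edgeR adjusted p = 0.258), -0.58 without WT 8 and -1.76 without Prdx1 C52S 1 (edgeR adjusted p = 0.584 and 0.179).

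Cholangiocyte markers shared their highest library, WT 8, with these scarce genes and with Mthfd1l and Mthfd2. Summed over 8, the cholangiocyte markers were at 136, 68 and 70.5 FPKM in libraries 1, 2 and 4 of Prdx1 C52S. In libraries 6, 8 and 9 of WT these markers were at 365, 846 and 234. Within Prdx1 C52S, Phgdh, Psat1 and Mthfd1l had the order of the markers, library 1 above 4 above 2, while Mthfd2 was highest in library 4. Within WT, Psat1 (nearly level), Mthfd1l and Mthfd2 were higher in library 6 than in 9, as the markers were, and Phgdh was not. The full order over both groups was not shared. Unlike the markers, Phgdh, Psat1 and Mthfd1l were higher in Prdx1 C52S 1 (0.691, 1.03 and 1.98 FPKM) than in WT 6 (0.56, 0.978 and 1.58). The part of the cholangiocyte markers in the values of Phgdh, Psat1, Mthfd1l and Mthfd2 was not tested. Psph, the phosphatase that finishes the route, was at 1.13 to 1.94 FPKM. Its start overlaps Cct6a (23.5 to 27.8 FPKM) on the opposite strand, from base 129786998 to 129787449 of chromosome 5. Reads in that stretch could be shared with Psph if strand was not used, which is not given in the sources used here.

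**Figure D4:**
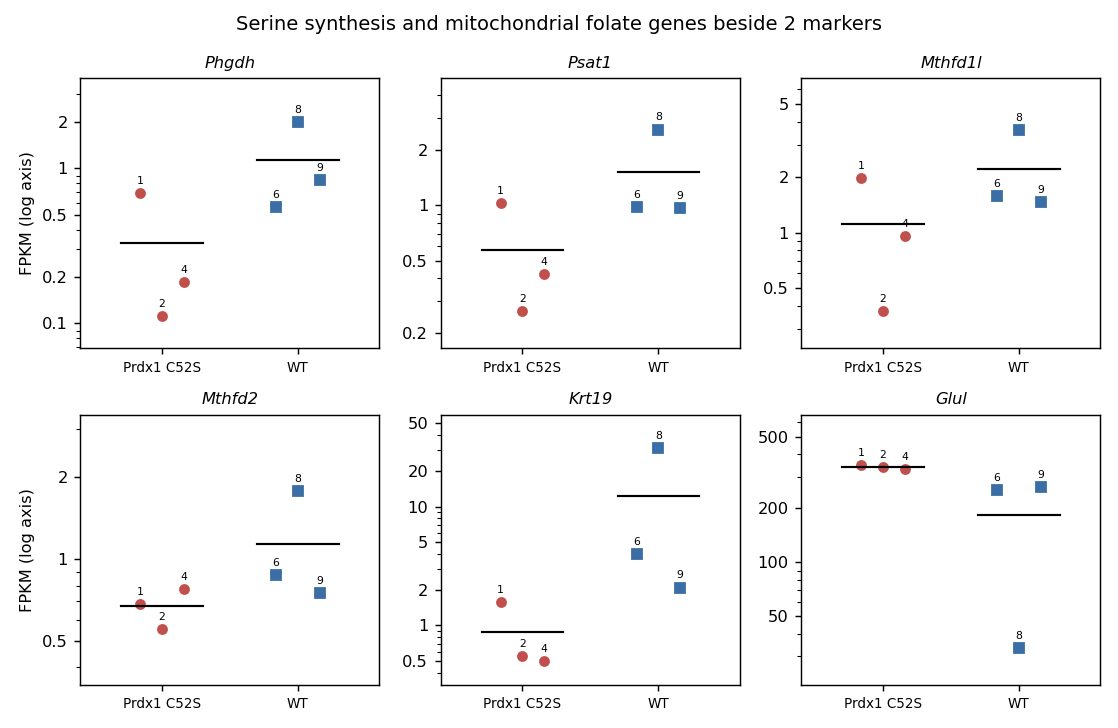
FPKM on a log axis of Phgdh, Psat1, Mthfd1l and Mthfd2 beside the cholangiocyte marker Krt19 and the pericentral hepatocyte marker Glul (numbers are library names, lines the group means). WT 8 is highest for the first 5 genes, with Krt19 at 30.9 FPKM, and lowest for Glul at 33.3 FPKM.

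Serine and glyoxylate breakdown contained the only gene with an unadjusted p under 0.05 in the lower direction. Sds, serine dehydratase, which turns serine into pyruvate (chr5:120476526-120483932, plus strand), was at 70.1, 57.4 and 65.3 FPKM with the C52S allele (libraries 1, 2 and 4), and 91.3, 136 and 99.3 without it (6, 8 and 9). Each Prdx1 C52S library was below each WT library, and WT 8 was highest. The means were 64.2 ± 6.38 and 109 ± 23.6 (SD, n = 3 each), and the log2 fold change came to -0.45 (SE 0.12, edgeR adjusted p = 0.101). Without WT 8 it was -0.38 (SE 0.10, edgeR adjusted p = 0.0717). Sds overlaps an antisense gene, Gm15690, at 10.2 to 13.5 FPKM and the end of Plbd2 at 9.23 to 14.2, whose reads could be shared with it if strand was not used.

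Agxt, which turns glyoxylate into glycine (chr1:93135240-93145421, plus strand), was at 41.7, 60.2 and 49.5 FPKM in libraries 1, 2 and 4 of Prdx1 C52S, against 31.1, 52 and 39.1 in libraries 6, 8 and 9 of WT. WT 8 lay within the Prdx1 C52S range in FPKM, and the log2 fold change came to 0.62 (SE 0.18, edgeR adjusted p = 0.107). Grhpr, which reduces glyoxylate and hydroxypyruvate (chr4:44981395-44990734, plus strand), was at 96.1, 104 and 106 FPKM with the C52S allele (libraries 1, 2 and 4), and 75.6, 58.8 and 85.1 without it (6, 8 and 9). Its groups were apart, with a log2 fold change of 0.74 (SE 0.22, edgeR adjusted p = 0.107), and without WT 8 it rose by 0.54 (SE 0.10, edgeR adjusted p = 0.0324).

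Most of the abundant genes among the 34 had positive values. Of the 23 with a mean above 20 FPKM, 20 had positive log2 fold changes, and of the 9 below 3 FPKM, 4 did. Only Mtr among those 9 had an unadjusted p under 0.05. The other 2 genes, Gldc and Amt, lay in between and were both positive.

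A ratio of related enzymes within a library is little affected by how libraries are scaled to each other where both genes are far above the 0.1 FPKM added to each. For 6 pairs the difference of log2((FPKM + 0.1) ratio) between groups was tested with an exact two-sided permutation test, which with 3 against 3 cannot go below 0.1. Cytosolic Shmt1 relative to mitochondrial Shmt2 was at -0.36, -0.33 and -0.50 in libraries 1, 2 and 4 of Prdx1 C52S, against -0.88, -0.97 and -0.83 in libraries 6, 8 and 9 of WT. All 3 Prdx1 C52S ratios were above all WT ratios, WT 8 lay close to its group, and the difference was 0.50 (exact permutation p = 0.1, 0.15 adjusted over 6 pairs). Bhmt relative to Bhmt2 was at 2.48, 2.93 and 2.72 in libraries 1, 2 and 4 of Prdx1 C52S, against 2.38, 2.15 and 2.39 in libraries 6, 8 and 9 of WT, a difference of 0.40 with no overlap (exact permutation p = 0.1, adjusted 0.15). Aldh1l1 over Aldh1l2 and Mthfd1 over Mthfd2 also had groups that did not overlap, with differences of 0.67 and 0.80 (exact permutation p = 0.1 and adjusted 0.15 for each). Both rest on a scarce partner. Aldh1l2 is close to the 0.1 FPKM added, so that its ratio follows the level of Aldh1l1 and moves with the scaling. Mthfd1 over Mthfd2 differed by 0.42 without WT 8 and by 0.52 with 1 FPKM added. Mat1a over Mat2a and Mthfd1 over Mthfd1l differed by 0.37 and 1.27, with overlapping groups (exact permutation p = 0.2 and 0.3, adjusted 0.24 and 0.3). Leaving out each library gave 0.24 (without WT 6) to 0.57 (without WT 9) for Mat1a over Mat2a. Mthfd1 over Mthfd1l differed by 0.67 without Prdx1 C52S 2, 0.83 without WT 8 and 0.82 with 1 FPKM added.

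**Figure D5:**
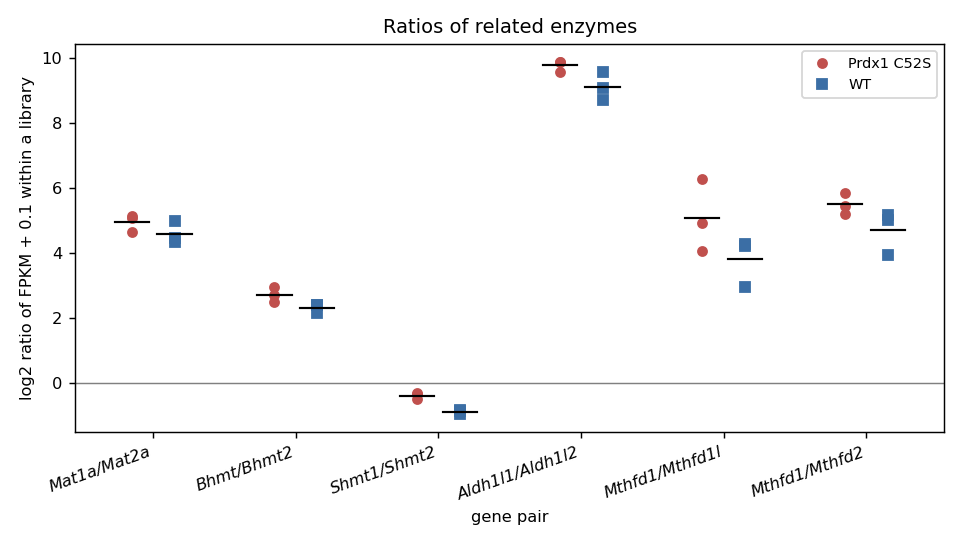
Log2 ratio of FPKM + 0.1 within each library for 6 pairs of related enzymes, with lines at the group means (n = 3 each). The groups are apart for Bhmt/Bhmt2, Shmt1/Shmt2, Aldh1l1/Aldh1l2 and Mthfd1/Mthfd2, and Shmt1/Shmt2 differs by 0.50.

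Beyond the 34 genes, 89 related genes in 7 lists were counted, of which 88 were tested. At an unadjusted p under 0.05, 31 were higher in Prdx1 C52S and 2 lower, where 11.5% and 14.8% of all genes tested were. With all 6 libraries 0 of the related genes passed at an adjusted p under 0.05 in edgeR, as did 0% of all genes. This holds for every related gene named below. Without WT 8, 12 rose and 0 fell at that threshold, where 2.7% and 1.94% of all genes did. The median log2 fold change of the related genes was 0.24 with TMM scaling and -0.13 with scaling to hepatocyte markers, against -0.03 and -0.43 over all genes. By list, the medians on these 2 scales were 0.47 and 0.08 for sulfur amino acids, 0.33 and -0.08 for glycine and serine, 0.29 and -0.10 for choline and betaine, and 0.11 and -0.28 for methionine and S-adenosylmethionine use. They were 0.05 and -0.30 for the folate cycle and transport, 0.11 and -0.31 for ATF4 and 0.15 and -0.21 for fasting, the last being -0.03 with TMM scaling without WT 8. Among 10 genes of sulfur amino acid and glutathione metabolism 7 were higher at an unadjusted p under 0.05, and 3 rose without WT 8. Gclc, the catalytic subunit of the enzyme that limits glutathione synthesis, averaged 103 ± 12.9 FPKM in Prdx1 C52S and 39.5 ± 6.14 in WT (SD, n = 3 each). Without WT 8 Gclc rose by 1.46 on the log2 scale (edgeR adjusted p = 0.00566), and its groups were far apart. Its partner Gclm and the sulfur dioxygenase Ethe1 rose by 0.48 and 0.89 without WT 8 (edgeR adjusted p = 0.0291 and 0.0258).

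In the list of glycine and serine genes 7 of 17 tested were higher at an unadjusted p under 0.05 and 0 lower. Hoga1, an aldolase that yields glyoxylate, and Srr, serine racemase, rose by 0.61 and 0.61 without WT 8 (edgeR adjusted p = 0.0144 and 0.0263), and Gcat, which cleaves a threonine product to glycine, had a log2 fold change of 0.56 with all libraries. Of 19 genes of methionine and S-adenosylmethionine use 5 were higher and 1 lower. The methyltransferase Inmt averaged 349 ± 53.5 FPKM in Prdx1 C52S and 155 ± 24.8 in WT, and Nnmt, which methylates nicotinamide, averaged 21.4 ± 5.43 against 60.4 ± 28.6 (SD, n = 3 each). Inmt rose by 1.39 without WT 8 (edgeR adjusted p = 0.0185), while Nnmt had a log2 fold change of -0.95 there (edgeR adjusted p = 0.273). Gamt, which makes creatine, had a log2 fold change of 0.53 with all libraries.

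Choline and betaine genes were higher for 3 of 6 at an unadjusted p under 0.05, among them Aldh7a1 at 88.1 ± 2.03 against 64.1 ± 3.73 FPKM (SD, n = 3 each). Aldh7a1, a betaine aldehyde dehydrogenase, rose by 0.61 without WT 8 (edgeR adjusted p = 0.0182), and the choline carrier Slc44a1 had a log2 fold change of 0.27 with all libraries. Folate cycle and transport genes were higher for 3 of 17, beside 11.5% of all genes. Among these, Mmab and Mmadhc, which handle cobalamin, had log2 fold changes of 0.71 and 0.42 with all libraries.

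Genes that respond to ATF4, a factor induced by amino acid shortage that also drives Phgdh and Psat1, went both ways. Of 12, 5 were higher and 1 lower at an unadjusted p under 0.05. Atf4 itself was at 32.4, 32.9 and 33 FPKM in libraries 1, 2 and 4 of Prdx1 C52S, against 21.5, 32.4 and 22.4 in libraries 6, 8 and 9 of WT. WT 8 was level with the Prdx1 C52S libraries in FPKM. Without WT 8, Atf4 rose by 0.77 (edgeR adjusted p = 0.0106), as did Atf5 by 0.77 (edgeR adjusted p = 0.0325). With all 6 libraries neither passed at an adjusted p under 0.05 in edgeR, so that both calls rest on leaving out WT 8. Vldlr had a log2 fold change of 1.12 with all libraries, and the lower gene, Nupr1, named after its value was seen, one of -1.27 (SE 0.32, edgeR adjusted p = 0.094). Of 8 genes responsive to fasting and glucagon 1, Tat, was higher at an unadjusted p under 0.05, at 384 ± 85 against 274 ± 52.6 FPKM (SD, n = 3 each), while G6pc and Igfbp1 had log2 fold changes of 1.35 and 0.74 with overlapping groups.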

How the data were processed

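The authors deposited, per the file headers, an FPKM value and an estimated count for each of 29734 genes in each of the 6 liver libraries. The deposited estimated counts appear to be worth about 4 per fragment. This factor was inferred from a peak in the low counts (6204 values at a count of 4, against 3538 at 3 and 1965 at 5). If it holds, low genes carry fewer molecules than their counts. Tools listed in the submitters' processing notes are StringTie 1.3.4d, HISAT2 2.0.4, edgeR, DESeq2, UMI-tools and cutadapt 1.9, beside the build mm9, and their roles are not stated. Gene coordinates are nevertheless those of GRCm38 (29 of the 34 genes are identical in GENCODE M21), and are given on that build. The sources used here do not give whether molecular identifiers were collapsed, whether strand was used, or how reads that fit several paralogs were treated. Per the labels' protocols, adapters carried molecular identifiers and second strands were marked with dUTP.

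Library totals ran from 60326469 to 76164949 estimated counts, or 15.1 to 19 M fragments if each fragment is worth 4 counts. TMM factors were 0.88 to 0.92 in Prdx1 C52S and 1.03 to 1.28 in WT, which makes the fold change of a gene with equal FPKM positive. WT 8 had the lowest mean correlation with the other libraries (0.958, others up to 0.983). With all libraries edgeR's common coefficient of variation was 0.31, and leaving out WT 8 it was 0.245. The labels name no batch.

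Estimated counts were tested with edgeR 4.0.16 (R 4.3.3): filterByExpr, TMM, robust quasi-likelihood F-test, Benjamini-Hochberg over the 18931 genes kept, and a threshold of 0.05. limma 3.58.1 and DESeq2 1.42.0 were alternatives. The scripts were tested on simulated data. The members, lists and tests were chosen with earlier results of these data known. Values by library were given for the 16 genes with the smallest unadjusted p under 0.05 and groups that did not overlap, the 4 most abundant genes and the members of 6 pairs. Other genes described by library were chosen after their values were seen. In related lists up to 3 genes with the smallest p were named, and 2 such genes are not reported here.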

Additional observations from a re-analysis of the deposited data

How the results depend on the processing

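No paired analysis was possible because the groups share no replicate number. Over all genes, where 0 were called higher and 0 lower, counts were 35 and 125 with library totals only, 1399 and 1723 with DESeq2, 1023 and 1006 with voom and library quality weights, 36 and 457 with hepatocyte-marker scaling, 39 and 94 with limma on log2(FPKM + 1), 59 and 221 on log2(FPKM + 0.1), 105 and 91 with no filter, 99 and 103 with a mean of at least 1 FPKM, and 43 and 40 with counts divided by 4. Leaving out each library gave 0 to 522 higher and 0 to 375 lower. Library totals moved the median of all genes by -0.31 (log2). Of the 34 genes, 18 were called higher and 1 lower with DESeq2, 14 higher with voom, and 1 higher each with library totals, hepatocyte-marker scaling, log2(FPKM + 0.1), no filter, at least 1 FPKM and counts divided by 4. Leaving out each library gave 0 to 11, the 11 without WT 8. Genes of the 34 with an unadjusted p under 0.05 numbered 13 higher and 4 lower with library totals (3.73% and 30.4% of all genes), 9 and 4 with hepatocyte-marker scaling (2.35% and 37.2%), 13 and 4 with log2(FPKM + 1) (4.41% and 23.7%) and 13 and 5 with log2(FPKM + 0.1) (4.44% and 26.3%). DESeq2 had 3 lower (15.9%). Leaving out each library gave 13 to 21 higher, the 13 without Prdx1 C52S 2 (6.79%), and 1 to 4 lower, the 4 without Prdx1 C52S 1 (12%) and 2 without WT 9 (16.5%). Groups that did not overlap numbered 11 higher and 3 lower with hepatocyte-marker scaling (3.78% and 44.3% of all genes), 2 lower with deposited FPKM (36.7%) and 3 lower without WT 8 (21.8%). The cause was not tested.

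Over 15 alternatives (14 for the 3 genes that a mean of at least 1 FPKM left out) 26 of the 34 genes kept the direction of their log2 fold change, and 8 did not. With library totals, Aldh1l2 was at -0.15, Mat1a at -0.035, Mthfs at -0.049, Mtr at -0.018 and Psph at -0.24. With hepatocyte-marker scaling, Ahcy was at -0.049, Aldh1l2 at -0.23, Chdh at -0.086, Mat1a at -0.12, Mthfs at -0.14, Mtr at -0.11 and Psph at -0.33. With limma on log2(FPKM + 1) and log2(FPKM + 0.1), Aldh1l2 was at -0.012 and -0.0605, Mat1a at -0.0217 and -0.0218, Mthfs at -0.028 and -0.041 and Psph at -0.14 and -0.21, and Mtr was at -0.0011 with the first. With voom, Aldh1l2 was at -0.052. Leaving out each library gave -0.10 to 0.50 for Aldh1l2, -0.18 to 0.10 for Mtrr and -0.0104 to 0.18 for Psph. Genes under 1 FPKM, such as Aldh1l2 and Phgdh, rest on few fragments.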
